A study of Mus musculus with 6 samples.

Results

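The genes described here are 9 genes of transforming growth factor beta (TGF-beta) signalling in activated CD8+ T cells. They are the ligand gene Tgfb1, the receptor genes Tgfbr1 and Tgfbr2, the signal transducer genes Smad2 and Smad3, the inhibitor genes Smad7, Ski and Skil, and Itgae. They were taken by name from a deposited table of 25638 genes, and all 9 were found there. The data are RNA sequencing of OT-I cells, mouse CD8+ T cells with a transgenic receptor for an ovalbumin peptide, kept for 48 hours with that peptide. They were cultured with TANs, with TAMos or with vehicle, and each of these 3 groups had 2 libraries. The genotype of every sample is labelled WT. TANs were sorted as CD11b+Ly6G+Ly6Clow cells and TAMos as CD11b+Ly6G-Ly6Chigh cells, both from the spleen of mice with LLC tumours, a transplanted lung carcinoma. After the culture, activated T cells were purified for RNA extraction. The sources used here do not give the age and sex of the mice, the ratio of the cells or what TAN and TAMo stand for. Nor do they say that the libraries of a group come from separate cultures or animals, so the spread between libraries, on which all p-values rest, could be technical only.

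TGF-beta is a cytokine that restrains the proliferation and effector function of T cells. It binds the receptor encoded by Tgfbr2, which recruits and phosphorylates the kinase encoded by Tgfbr1. That kinase phosphorylates the proteins of Smad2 and Smad3, which join the protein of Smad4 and act on transcription in the nucleus. Smad7, Ski and Skil are negative regulators, and Smad7 and Skil are themselves known target genes of the pathway. Itgae encodes CD103, the integrin alpha chain that pairs with the product of Itgb7 and binds E-cadherin, and TGF-beta is known to raise it in CD8+ T cells that settle in epithelium.

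Values are FPKM, in which a gene's reads are scaled to its length and to the library's counted reads. Steps between low values, fitted within 30000000 to 60000000 reads, gave 41600000 to 45100000 counted reads per library. Even values made up 98.8% of the low read numbers of TAMo replicate 1 and 60.2% to 63.8% of those of each other library. The true depth of TAMo replicate 1 may therefore be smaller, below the range that the fit could return. The sum of FPKM was 628900 and 628300 in TAN, 546300 and 548000 in TAMo, and 630700 and 629900 in vehicle libraries. Mitochondrially encoded transcripts took 8.07% and 8.21% of it with TAN, 1.20% and 1.32% with TAMo, and 8.15% and 8.34% with vehicle. What part this difference has in the levels of other genes was not tested beyond the rescaling described with Tgfb1. A gene was tested where 2 or more libraries reached 1 FPKM, which held for 10727 genes and for 8 of the 9 members. Itgae did not reach it in any library. The T cell marker genes Cd3e, Cd3d, Cd3g, Cd8a, Cd8b1, Cd2 and Lck summed to between 1260 and 1310 FPKM in every library. Within this sum, Cd2 had 208 and 215 FPKM with TAN, 48.2 and 55.3 with TAMo, and 189 and 203 with vehicle. Cd8a was also lower with TAMo, at 94.5 and 95.1 FPKM against 135 to 152 in the others. Cd3d was higher with TAMo, at 208 and 212 FPKM against 140 to 151. All 13 neutrophil markers listed stayed under 1 FPKM, with S100a8 and S100a9 at 0 in every library. Of 15 monocyte and macrophage markers, 10 stayed under 1 FPKM in every library, with Lyz2 at 0.104 and 0.182 FPKM in the TAMo libraries and C1qa at 0 throughout. The list as a whole summed to 185 and 189 FPKM with TAN, 460 and 458 with TAMo, and 172 and 173 with vehicle. Plac8, which T cells also express, made up 441 and 433 of the TAMo sums, and Cd14 stood at 2.84 and 3.17 FPKM in TAMo libraries and at no more than 0.0852 in the other 4. Cd68 had 3.63 and 7.05 FPKM with TAMo and 1.82 to 2.95 in the other libraries. Ms4a6c had 4.88 and 6.28 FPKM with TAMo and 2.38 to 3.12 in the others. Apoe went the other way, with 7.35 and 7.75 FPKM with TAMo and 16.6 to 21.7 in the others. The 6 dendritic cell markers summed to 2.28 and 2.87 FPKM with TAN, 7.35 and 6.86 with TAMo, and 3.30 and 2.81 with vehicle. Of 6 B cell markers, 2 stayed under 1 FPKM in every library, and the list summed to between 7.14 and 9.55 FPKM. What part cells other than T cells have in the results below was not tested.

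The windows around the gene starts are shown for 4 members whose responses differ, from 250 bases before to 50 bases after the RefSeq start on GRCm38.p6. Tgfbr2, Smad3 and Ski were higher with TAMo and Tgfb1 was not called, and the first 2 were chosen for display after their values were seen. Windows were matched for Tgfb1, Tgfbr1, Tgfbr2, Smad3 and Ski, 5 of the 9 genes. Capitals mark CAGAC, a Smad-binding sequence, searched on both strands. TGTGGT, a core sequence bound by Runx factors, was searched in the same way and was not found in any of these windows. The Tgfbr2 window, chr9:116175314-116175613 on the minus strand, holds CAGAC once, with its first base at position -160 from the start. Of the 2 windows of Tgfbr1, which are not printed, that at chr4:47385966-47386265 also holds CAGAC once and the other does not. The Smad3 window is chr9:63757945-63758244 on the minus strand, the Ski window chr4:155222486-155222785 on the minus strand and the Tgfb1 window chr7:25686752-25687051 on the plus strand.
Tgfbr2: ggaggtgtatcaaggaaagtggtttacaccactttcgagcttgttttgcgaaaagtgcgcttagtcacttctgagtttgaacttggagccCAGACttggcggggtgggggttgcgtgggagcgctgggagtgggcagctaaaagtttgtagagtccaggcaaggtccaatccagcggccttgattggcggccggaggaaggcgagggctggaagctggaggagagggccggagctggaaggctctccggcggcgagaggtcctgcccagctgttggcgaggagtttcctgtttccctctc
Smad3: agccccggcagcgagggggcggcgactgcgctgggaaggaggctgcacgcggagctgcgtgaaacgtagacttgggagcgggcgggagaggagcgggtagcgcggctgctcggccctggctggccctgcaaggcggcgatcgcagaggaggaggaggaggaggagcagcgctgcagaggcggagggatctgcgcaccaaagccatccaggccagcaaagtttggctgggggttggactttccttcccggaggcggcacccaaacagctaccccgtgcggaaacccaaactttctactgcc
Ski: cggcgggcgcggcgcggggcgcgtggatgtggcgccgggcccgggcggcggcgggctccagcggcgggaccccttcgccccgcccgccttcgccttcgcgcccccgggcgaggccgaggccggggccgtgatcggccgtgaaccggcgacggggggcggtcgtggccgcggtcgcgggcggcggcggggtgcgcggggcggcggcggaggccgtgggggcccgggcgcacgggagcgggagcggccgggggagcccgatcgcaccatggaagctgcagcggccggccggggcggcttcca
Tgfb1: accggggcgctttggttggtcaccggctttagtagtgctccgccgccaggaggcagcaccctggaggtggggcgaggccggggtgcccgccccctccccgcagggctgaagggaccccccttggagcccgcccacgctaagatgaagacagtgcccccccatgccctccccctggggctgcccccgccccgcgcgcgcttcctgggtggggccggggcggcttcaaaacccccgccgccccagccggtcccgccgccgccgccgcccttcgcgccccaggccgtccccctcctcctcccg
Among all 32851 windows of this length, 49.6% hold CAGAC and 16.8% hold TGTGGT on either strand, so that these short matches are common. GC content was 59.0% in the Tgfbr2 window, 67.7% in that of Smad3, 85.3% in that of Ski and 77.0% in that of Tgfb1.

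After co-culture with TAMos, 7 of the 8 tested members rose and none fell, while Tgfb1 did not pass the test. Both receptor genes, both Smad transducer genes and all 3 inhibitor genes were in that group, by between 1.36-fold and 6.41-fold. After co-culture with TANs, only Smad2 passed the test, where it fell, and that call was lost in most other settings. These counts stand against a wide background. With TAMo, 86.5% of all genes tested were called, 45.7% higher and 40.7% lower than with vehicle, whereas with TAN 20.3% were called, 9.37% higher and 11.0% lower. The median log2 change of the 8 members was 1.27 with TAMo, beside 0.057 for all genes tested, and 0.00018 with TAN, beside -0.0050. Tests were made with limma across all genes on log2(FPKM + 1), where a change is understated for genes near 1 FPKM. The RNA is bulk RNA of the purified T cells, in which a change in the number of cells that express a gene and a change in RNA per cell cannot be told apart.

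**Figure D1:**
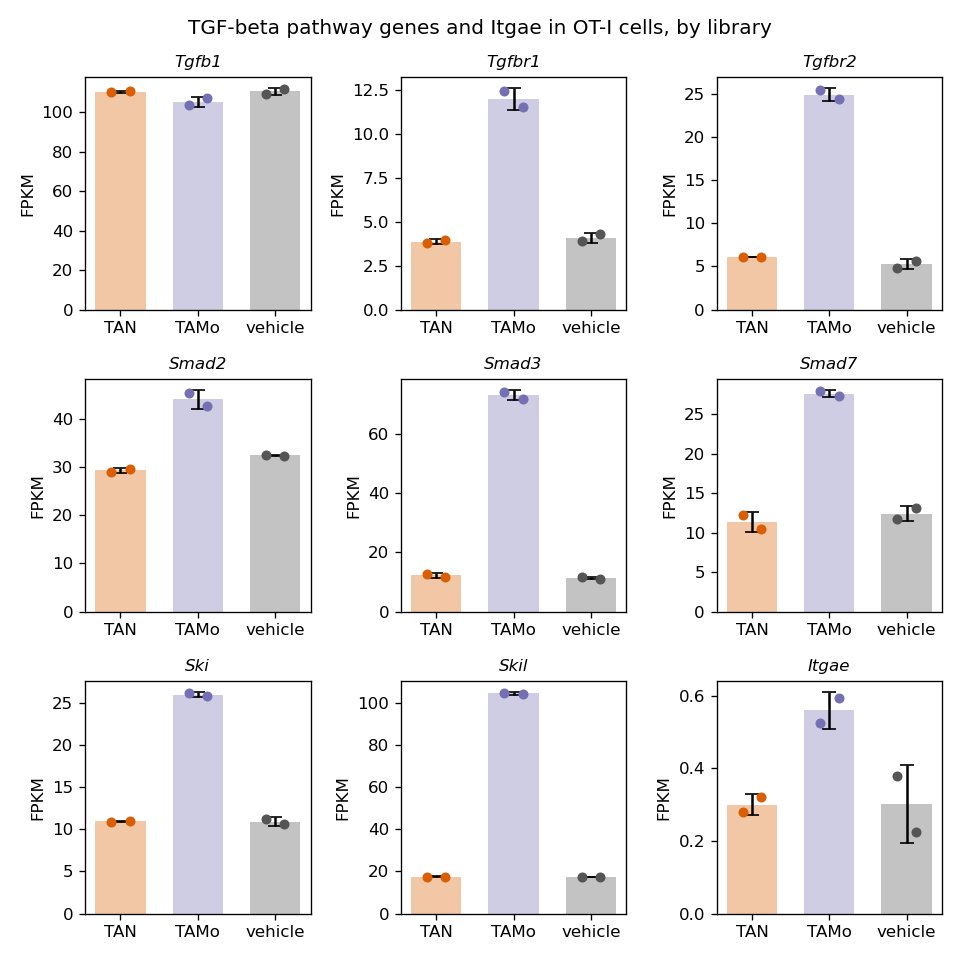
FPKM of the 9 members in OT-I cells cultured with TAN, TAMo or vehicle; bars are means of 2 libraries, error bars SD and points single libraries. Both TAMo libraries lie above the other 4 for every gene but Tgfb1, and TAN and vehicle libraries lie close together.

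Tgfb1 was the most abundant member, and its level was nearly the same in the 3 groups. This gene of the main lymphocyte TGF-beta ligand (GRCm38 chromosome 7, 25687002 to 25705077) had 110.02 and 111 FPKM with TAN, 103 and 107 FPKM with TAMo, and 109 and 112 FPKM with vehicle. Both TAMo libraries were the lowest of the 6, by a small margin. The log2 change was -0.0012 ± 0.029 for TAN (SE, limma adjusted p = 0.981) and -0.070 ± 0.029 for TAMo (adjusted p = 0.0534), each against vehicle. The TAMo value depends on how libraries are scaled. It passed the test with the median ratio set equal between libraries (-0.138, adjusted p = 0.00281), with quantile normalisation (-0.084, adjusted p = 0.032), with replicate number as a block (adjusted p = 0.0386) and without TAMo replicate 2 (-0.095, adjusted p = 0.0208), and turned to 0.027 (adjusted p = 0.414) when mitochondrial transcripts were left out and libraries set to one sum.

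The receptor genes were both higher with TAMo, and Tgfbr2 more so than Tgfbr1. Tgfbr2, whose product is the ligand-binding type II receptor kinase (chromosome 9, 116084293 to 116175360), had 6.14 and 6.13 FPKM with TAN, 25.5 and 24.4 FPKM with TAMo, and 4.86 and 5.66 FPKM with vehicle. Both TAN libraries lay slightly above both vehicle libraries, far below the TAMo libraries. The rise with TAMo was 4.74-fold (2.05 ± 0.072 on the log2 scale, limma adjusted p = 1.01e-07), while TAN gave 0.19 ± 0.072 (adjusted p = 0.106). Tgfbr1, the type I receptor kinase gene (chromosome 4, 47353222 to 47414931), had 3.78 and 3.97 FPKM with TAN, 12.4 and 11.6 FPKM with TAMo, and 3.88 and 4.30 FPKM with vehicle. TAN and vehicle libraries overlapped for Tgfbr1. The rise with TAMo was 2.93-fold (1.35 ± 0.072, adjusted p = 1.04e-06), and the change with TAN was -0.061 ± 0.072 (adjusted p = 0.605). Within a library, Tgfbr2 stood at 1.62 and 1.55 times the FPKM of Tgfbr1 with TAN, 2.05 and 2.11 times with TAMo, and 1.25 and 1.32 times with vehicle.

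Of the transducers, Smad3 rose far more than Smad2 with TAMo, which turned round the order of their levels per length. Smad3 (chromosome 9, 63646767 to 63757994) had 12.8 and 11.7 FPKM with TAN, 74.3 and 72.0 FPKM with TAMo, and 11.7 and 11.1 FPKM with vehicle. It rose 6.41-fold with TAMo, with a log2 change of 2.58 ± 0.053 (limma adjusted p = 7.58e-09) that ranked at percentile 98.5 of all genes tested. Its change with TAN was 0.091 ± 0.053 (adjusted p = 0.278). Smad2 (chromosome 18, 76241580 to 76310963) had 29.0 and 29.7 FPKM with TAN, 45.4 and 42.7 FPKM with TAMo, and 32.6 and 32.3 FPKM with vehicle. With TAMo it rose 1.36-fold (0.43 ± 0.040, adjusted p = 2.77e-05), at percentile 66.3 of all genes.
With TAN, Smad2 was 0.904 times its vehicle level, with both TAN libraries below both vehicle libraries and a log2 change of -0.14 ± 0.040 (adjusted p = 0.0497). That call did not hold without any 1 of the 4 TAN and vehicle libraries (adjusted p between 0.133 and 0.200). It was also lost with a pseudocount of 0.1 or 0.5, no filter, 3 other scalings, no variance trend or a replicate block (0.0501 to 0.0913).
The ratio of Smad3 to Smad2 FPKM was 0.441 and 0.394 in TAN, 1.64 and 1.69 in TAMo, and 0.360 and 0.344 in vehicle libraries. The 3 groups do not overlap in this ratio. The ratios between members are given as descriptions, without a test.

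**Figure D2:**
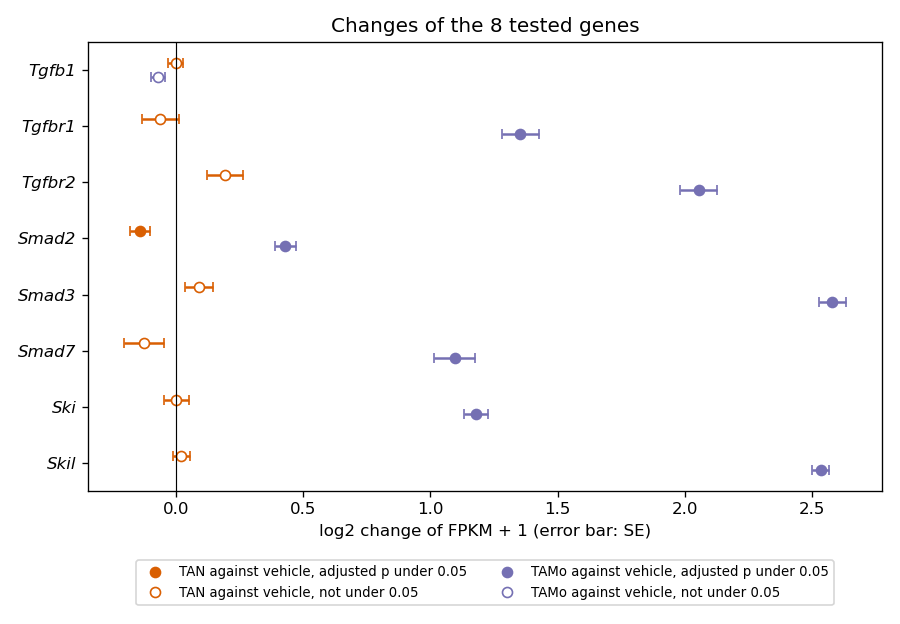
Log2 change of FPKM + 1 against vehicle for the 8 tested members, with TAN and with TAMo; bars are standard errors and filled points have a limma adjusted p under 0.05. With TAMo 7 genes lie between 0.43 and 2.58 and Tgfb1 at -0.070, whereas all TAN values lie between -0.14 and 0.19.

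The 3 inhibitor genes rose with TAMo by different amounts. Skil encodes SnoN, a co-repressor that binds Smad proteins (chromosome 3, 31095058 to 31122577). It had 17.4 and 17.6 FPKM with TAN, 105 and 104 FPKM with TAMo, and 17.2 and 17.3 FPKM with vehicle. Replicates of Skil were close, and both TAN libraries lay above both vehicle libraries by a margin within their spread. The rise with TAMo was 6.07-fold (log2 change 2.53 ± 0.033, limma adjusted p = 1.24e-09, percentile 98.4), and TAN gave 0.020 ± 0.033 (adjusted p = 0.721). Ski, the gene of the related co-repressor (chromosome 4, 155154075 to 155222592), had 10.9 FPKM in both TAN libraries, 26.1 and 25.7 FPKM with TAMo, and 11.2 and 10.6 FPKM with vehicle. It rose 2.38-fold with TAMo (1.18 ± 0.049, adjusted p = 2.52e-07), and its change with TAN was 0.0016 ± 0.049 (adjusted p = 0.986). Smad7 encodes the inhibitory Smad that blocks and helps degrade the type I receptor (chromosome 18, 75367529 to 75395935). It had 12.2 and 10.4 FPKM with TAN, 27.9 and 27.3 FPKM with TAMo, and 11.7 and 13.1 FPKM with vehicle. TAN and vehicle libraries of Smad7 overlapped, and its replicates differed more than those of Ski or Skil. Its rise with TAMo was 2.22-fold (1.09 ± 0.079, adjusted p = 5.90e-06), and TAN gave -0.12 ± 0.079 (adjusted p = 0.314).

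Within a library, Skil had 1.60 and 1.61 times the FPKM of Ski with TAN, 4.02 and 4.05 times with TAMo, and 1.53 and 1.64 times with vehicle. Smad7 had 0.954 and 0.893 times the FPKM of Smad3 with TAN, 0.375 and 0.379 times with TAMo, and 1 and 1.17 times with vehicle. Smad7 and Smad3 thus had similar levels per length in the TAN and vehicle libraries, while in TAMo libraries Smad3 was the higher by a wide margin. The 3 inhibitor genes together summed to 40.5 and 38.9 FPKM with TAN, 159 and 157 FPKM with TAMo, and 40.2 and 41.0 FPKM with vehicle.

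**Figure D3:**
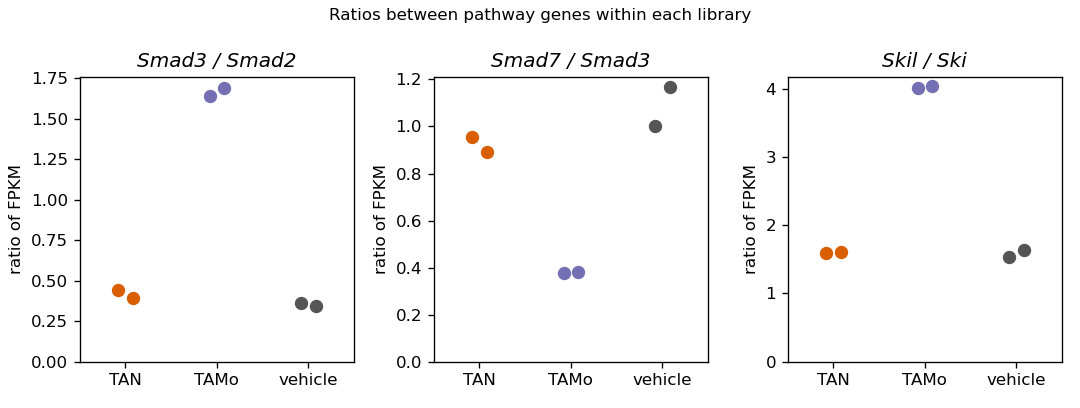
Ratio of FPKM between pairs of members within each library, for TAN, TAMo and vehicle; each point is 1 library and both libraries of a group are drawn. The TAMo libraries stand apart in all 3 ratios, with Smad3 over Smad2 at 1.64 and 1.69, Smad7 over Smad3 at 0.375 and 0.379, and Skil over Ski at 4.02 and 4.05.

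Itgae was low in all groups, under the filter of 1 FPKM. The gene of CD103 (chromosome 11, 73090583 to 73147446) had 0.279 and 0.320 FPKM with TAN, 0.524 and 0.594 FPKM with TAMo, and 0.378 and 0.225 FPKM with vehicle. Both TAMo libraries were the highest, while the TAN libraries lay between the vehicle libraries. Mean FPKM was 0.559 with TAMo and 0.302 with vehicle, a difference that the log2 change of FPKM + 1 below understates. At an annotated exon length of 4581 bases these values correspond to about 46 to 113 reads, where those of the other members run from 1111 upward. Itgae was not tested under the filter. With no filter on low values, the log2 change with TAMo was 0.26 ± 0.066 (limma adjusted p = 0.0228), and with TAN it was 1.94e-05 ± 0.066 (adjusted p = 1). Leaving out 1 library more, the TAMo value had an adjusted p of 0.0795 without TAN replicate 1, 0.0793 without TAN replicate 2, 0.082 without TAMo replicate 1, 0.135 without TAMo replicate 2 and 0.0553 without vehicle replicate 2. The call held without vehicle replicate 1 alone (0.0113). These left-out fits were chosen after seeing the data.

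The partner chain Itgb7 and the regulator Runx3 were measured well above Itgae, and the ligand gene Cdh1 below it. Itgb7, the beta chain that pairs with CD103 and also with the product of Itga4, had 80.6 ± 4.59 FPKM with TAN, 103 ± 5.90 FPKM with TAMo and 66.9 ± 2.55 FPKM with vehicle (SD, n = 2). It rose with TAN (log2 change 0.26 ± 0.054, limma adjusted p = 0.0174) and with TAMo (0.62 ± 0.054, adjusted p = 1.85e-05). For TAN the adjusted p was 0.102 without TAN replicate 1 and 0.111 or 0.0584 without the first or the other vehicle library, and it also missed the threshold with no filter (0.0733) or no variance trend (0.0503). Cdh1, the gene of the ligand E-cadherin, stayed at or under 0.0468 FPKM in every library. Runx3, a transcription factor known to act on Itgae in CD8+ T cells, had 74.3 ± 2.60 FPKM with TAN, 128 ± 6.14 FPKM with TAMo and 68.6 ± 0.538 FPKM with vehicle. Its rise with TAMo was 1.87-fold (adjusted p = 4.56e-07), and TAN gave 0.11 ± 0.041 (adjusted p = 0.0976). The TAN value passed in the fit of TAN and vehicle alone (0.0495), with a replicate block (0.0491) and without TAMo replicate 1 (0.0451) or 2 (0.0448).
Of the 14 genes listed for CD103, its partners and tissue residency, 12 were tested. With TAMo 11 rose and none fell, with a median log2 change of 1.11, and with TAN 2 rose and 3 fell, with a median of 0.035. Of the 11, Ccr9 reached 1 FPKM with TAMo only, and Runx1 outside the TAMo libraries in vehicle replicate 2 alone. Both entered the test through the group where they are high. Genes tied to residency on other lists did not all move the same way. Zfp683, a residency factor gene, fell with TAMo to 0.229 times its vehicle level of 1.32 FPKM. The egress genes S1pr1 and Klf2 rose 2.87-fold and 3.73-fold with TAMo.
Cxcr6, a chemokine receptor gene of resident T cells, stood at 1.13 ± 0.0431 FPKM with TAN, 27.9 ± 0.242 FPKM with TAMo and 0.930 ± 0.295 FPKM with vehicle, a 30-fold rise with TAMo. Itga4, the alpha 4 integrin gene, rose 6.33-fold with TAMo, and Hic1, a transcriptional repressor gene, 4.61-fold. Cd69, an activation and residency marker, rose 4.02-fold with TAMo and fell with TAN to 0.747 times its vehicle level (log2 change -0.42, adjusted p = 0.00125). Hic1 also fell with TAN (-0.39, adjusted p = 0.00465), and Prdm1, the gene of Blimp-1, rose 1.97-fold (adjusted p = 0.00105).
Over the 6 libraries, the genes with at least 5 FPKM on average whose centred log2(FPKM + 1) was nearest to that of Itgae were Wbp1, Hsbp1, Itgb1bp1 and BC017643, with root mean square differences of 0.033, 0.034, 0.036 and 0.036. At the level of Itgae the added 1 narrows all differences, so its profile and theirs are nearly flat on this scale: Wbp1 had 10.7 FPKM with TAN, 13.6 FPKM with TAMo and 11.0 FPKM with vehicle.

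Itgav rose and Lrrc32 fell with TAMo among the genes of other ligands and of proteins that store or release TGF-beta. Of 23 genes listed, 10 were tested, of which 8 rose and 2 fell with TAMo (median 1.48), beside 86.5% called, 45.7% higher and 40.7% lower, among all genes tested. With TAN 2 rose and 1 fell (median 0.020), beside 9.37% higher and 11.0% lower. The counts of the other lists, that of tissue residency included, stand against these same shares. Of the 8 rises with TAMo, Tgfb2, Tgfb3, Inhba and Ltbp2 stayed under 1 FPKM with TAN and vehicle. They entered the test only through the TAMo libraries, where they are high. Ltbp3 and Ltbp4, not tested under the filter, had 0.393 and 0.461 times their vehicle level with TAMo. When a mean of at least 5 FPKM was required, 3 genes of this group rose with TAMo. Itgav, the alpha V integrin chain that takes part in releasing TGF-beta from its latent form, had 24.4 ± 0.353 FPKM with TAN, 128 ± 1.98 FPKM with TAMo and 19.3 ± 0.101 FPKM with vehicle. It rose in both comparisons, 1.26-fold with TAN (limma adjusted p = 0.00133) and 6.62-fold with TAMo (adjusted p = 1.02e-09). Of its known partner chains, Itgb8 and Itgb6 had at most 0.0795 FPKM in any library. Itgb1, another partner chain, had means of 76.7 FPKM with TAN, 113.6 FPKM with TAMo and 87.95 FPKM with vehicle.
Lrrc32, which encodes GARP, a surface anchor of latent TGF-beta, had 7.32 ± 0.141 FPKM with TAN, 0.667 ± 0.103 FPKM with TAMo and 8.12 ± 0.169 FPKM with vehicle. With TAMo it was 0.0822 times its vehicle level (log2 change -2.45 ± 0.073, adjusted p = 4.32e-08). Nrros, a related anchor gene of myeloid cells, also fell with TAMo (-0.92 ± 0.052). With TAN it had -0.19 ± 0.052 (adjusted p = 0.0411), a call that was lost without any 1 of the TAN and vehicle libraries (0.0974 to 0.191), with no filter (0.0848), no variance trend (0.0592) or a replicate block (0.0579).
Furin, the protease that cleaves the TGF-beta precursor, had the largest log2 change of FPKM + 1 among the called genes of this group with TAN, at 217 ± 3.74 FPKM against 138 ± 2.24 FPKM with vehicle (0.65 ± 0.028, adjusted p = 4.39e-05), and rose less with TAMo, to 159 ± 1.98 FPKM (0.21 ± 0.028). Among ligands, Gdf11, a relative of the activins, rose 5.59-fold with TAMo, to 17.2 ± 0.622 FPKM. Tgfb2 and Tgfb3 reached 3.01 ± 0.119 and 3.23 ± 0.10 FPKM with TAMo, against 0.0439 ± 0.0107 and 0.591 ± 0.117 FPKM with vehicle, so that Tgfb1 remained the ligand gene with by far the highest level per length.

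All 8 tested receptor genes other than Tgfbr1 and Tgfbr2 rose with TAMo, of 12 listed, with a median of 1.36, and 1 rose with TAN. Acvr2a and Bmpr2 reached 1 FPKM with TAMo only, and Acvrl1 outside the TAMo libraries in TAN replicate 1 alone. These genes entered the test through the group where they are high. Acvr2b and Bambi, not tested under the filter, each had 0.393 times their vehicle level with TAMo. Eng, the gene of the co-receptor endoglin, had 4.96 ± 0.294 FPKM with TAN, 95.02 ± 1.20 FPKM with TAMo and 5.14 ± 0.291 FPKM with vehicle, an 18.5-fold rise with TAMo (log2 change 3.97 ± 0.058, limma adjusted p = 1.62e-09). Acvrl1, a type I receptor gene known from endothelium, rose 11.3-fold with TAMo, to 7.95 ± 0.391 FPKM, against 0.702 ± 0.185 FPKM with vehicle (2.40 ± 0.10). Tgfbr3, the gene of the co-receptor betaglycan, rose in both, to 3.67 ± 0.0366 FPKM with TAN (0.60 ± 0.065, adjusted p = 0.00171) and to 10.1 ± 0.380 FPKM with TAMo (1.85 ± 0.065), against 2.08 ± 0.00964 FPKM with vehicle. With a mean of at least 5 FPKM required, where fewer genes were tested, 3 rose. With no filter on low values, 2 receptor genes of this list were called lower with TAMo.

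Of 10 further Smad genes and their partners, 6 were tested and all 6 rose with TAMo (median 0.68), against 1 with TAN, Ep300. Smad4, the common partner of Smad2 and Smad3, had 19.8 ± 0.848 FPKM with TAN, 27.8 ± 0.0421 FPKM with TAMo and 18.8 ± 1.02 FPKM with vehicle. Its log2 change was 0.55 ± 0.052 with TAMo (limma adjusted p = 2.90e-05) and 0.074 ± 0.052 with TAN (adjusted p = 0.358). Ep300 and Crebbp, acetyltransferase genes of Smad co-activators, rose 2.52-fold and 1.81-fold with TAMo, and Smad1 of the bone morphogenetic protein branch 2.12-fold. The TAN value of Ep300, 0.14 ± 0.034 (adjusted p = 0.0279), missed the threshold without any 1 of the TAN and vehicle libraries (0.0549 to 0.135), with no filter (0.0563) and with no variance trend (0.0727).

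Among 18 listed co-repressors and other regulators, 16 were tested. Of these, 12 rose and 1 fell with TAMo (median 0.83), and 4 rose and 1 fell with TAN (median 0.023). Most are negative regulators, but not all: the list includes Rnf111 and Usp4, which rose with TAMo, and Usp15, which was not called. Of the genes that rose with TAMo, Ldlrad4 reached 1 FPKM with TAMo only and entered the test through that group. Pmepa1, a feedback inhibitor that is itself a TGF-beta target, rose in both co-cultures. It had 7.04 ± 0.176 FPKM with TAN, 24.7 ± 0.327 FPKM with TAMo and 4.77 ± 0.0926 FPKM with vehicle, with log2 changes of 0.48 ± 0.053 for TAN (limma adjusted p = 0.00186) and 2.15 ± 0.053 for TAMo (adjusted p = 1.67e-08). Smurf1 and Smurf2, ubiquitin ligase genes whose products act with Smad7, rose 3.24-fold and 2.21-fold with TAMo. With TAN, Wwp1, another ubiquitin ligase gene, rose 1.52-fold (adjusted p = 0.001), and Fkbp1a, the gene of a protein that holds the type I receptor inactive, 1.15-fold (adjusted p = 0.00534). The single fall with TAN was that of Tgif1, a co-repressor gene (-0.20 ± 0.056, adjusted p = 0.0488), which missed the threshold without any 1 of the TAN and vehicle libraries (0.0519 to 0.216) and in 6 other settings (0.0501 to 0.131). With TAMo Tgif1 rose 1.77-fold, and Strap was the one that fell.

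Of the 9 genes of the Smad-independent branch, all tested, 6 rose and 1 fell with TAMo (median 0.53), and 2 rose and 1 fell with TAN (median 0.099). Among the 6, Rhoa rose only 1.05-fold with TAMo (limma adjusted p = 0.045). Its TAMo call was lost with median-ratio rescaling (0.969), no variance trend (0.141), no filter (0.0634) and the fit of the 2 groups alone (0.0803). Map3k7, which encodes the kinase TAK1, rose 2.63-fold with TAMo and Traf6, the gene of a ubiquitin ligase upstream of it, 2.27-fold, while Tab1, the gene of a TAK1-binding activator, fell in both comparisons. Tab1 had 29.1 ± 0.513 FPKM with TAN, 12.2 ± 0.271 FPKM with TAMo and 34.0 ± 1.47 FPKM with vehicle, with log2 changes of -0.22 ± 0.045 for TAN (limma adjusted p = 0.0183) and -1.40 ± 0.045 for TAMo (adjusted p = 6.60e-08). For TAN the adjusted p of Tab1 was 0.0743 without TAN replicate 1, 0.109 without TAN replicate 2 and 0.103 without vehicle replicate 2. The kinase gene Mapk14 and the GTPase gene Rhoa rose 1.15-fold and 1.13-fold with TAN. Mapk14 missed the threshold without TAN replicate 1 (0.0587) or vehicle replicate 2 (0.0552). Rhoa did so without TAN replicate 1 (0.0548) or 2 (0.0542) or vehicle replicate 1 (0.0573).

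**Figure D4:**
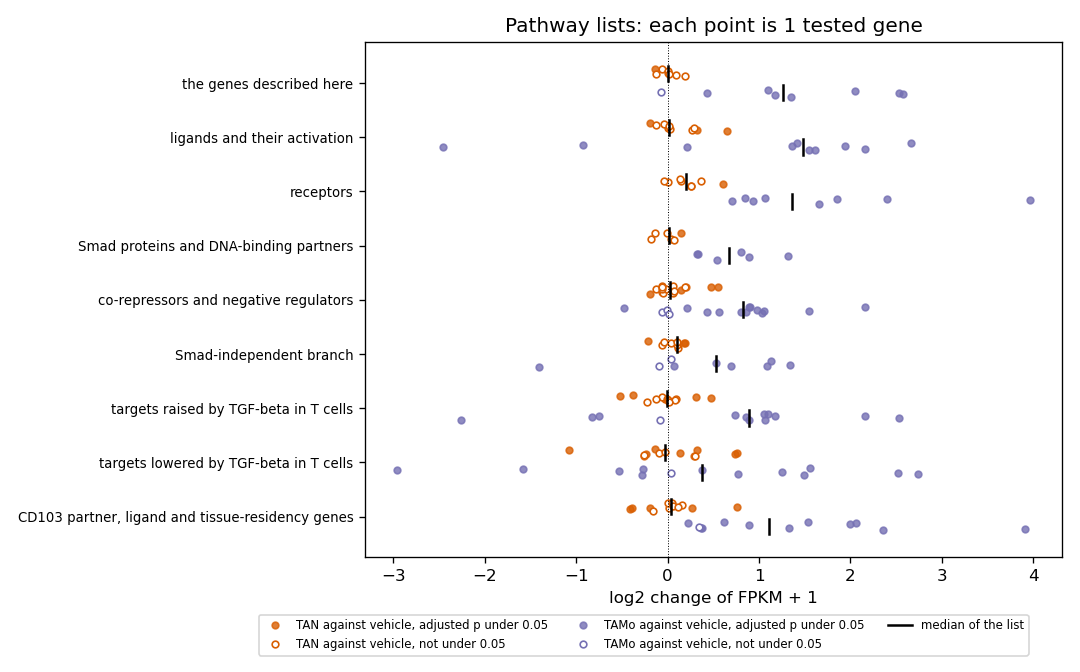
Log2 change of FPKM + 1 against vehicle for every tested gene of the members and of 8 pathway lists, with TAN and with TAMo; filled points have a limma adjusted p under 0.05 and black bars are list medians. With TAMo all list medians lie between 0.38 and 1.48, and with TAN between -0.025 and 0.20. Some listed genes passed the filter only through the TAMo libraries, where they are high.

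Genes listed here as raised or lowered by TGF-beta in T cells were called in both directions. Of 20 listed as raised, which include Smad7, Ski, Skil and Itgae, 13 were tested. With TAMo 9 rose and 3 fell (median 0.89), while 2 rose and 2 fell with TAN (median -0.0097). Among these 20, Ldlrad4 and Nt5e reached 1 FPKM with TAMo only and rose, and Zfp683 with TAN and vehicle only and fell. Of 16 listed as lowered, 13 were tested, and 7 rose and 5 fell with TAMo (median 0.38), while 5 rose and 4 fell with TAN (median -0.025). The TAMo counts of the genes listed as lowered are near the 45.7% higher and 40.7% lower of all genes tested. The 5 became 3 without TAN replicate 2 or vehicle replicate 1, and the 2 that rose on the first list became 1 with no filter or without TAN replicate 1, TAN replicate 2 or vehicle replicate 2.
On the first list, Skil and Pmepa1 led the rises with TAMo, and Id3, a gene of an inhibitor of E proteins, fell to 5.55 ± 0.682 FPKM with TAMo, against 30.3 ± 0.921 FPKM with vehicle (-2.26 ± 0.076, limma adjusted p = 7.96e-08). Rgs16, a regulator of G protein signalling, fell with TAN (-0.38 ± 0.032) and rose with TAMo (0.74 ± 0.032).
On the second list, Prf1, the gene of perforin, fell to 23.9 ± 0.409 FPKM with TAMo, against 193 ± 2.19 FPKM with vehicle, and Ifng fell to 0.332 times its vehicle level. In the opposite direction, Id2, a factor gene of effector T cells, rose 7.03-fold and Il2 7.85-fold with TAMo. With TAN, Il2 was 0.239 times its vehicle level, whereas Ifng rose 1.67-fold and S1pr1, the egress receptor gene, 1.94-fold.

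Set directly against each other, TAN libraries were lower than TAMo libraries for the same 7 members that rose with TAMo, and higher for none. Of all genes tested in this comparison, 86.6% were called, 46.0% lower and 40.6% higher with TAN. The median log2 change was -1.32 for the members beside -0.065 for all genes. The largest differences were those of Skil (-2.51 ± 0.033, limma adjusted p = 1.31e-09) and Smad3 (-2.49 ± 0.053, adjusted p = 9.26e-09). Tgfbr2 (-1.86), Tgfbr1 (-1.41), Smad7 (-1.22), Ski (-1.18) and Smad2 (-0.57) followed, with adjusted p between 1.75e-07 and 5.34e-06. Tgfb1 had 0.069 ± 0.029 (adjusted p = 0.0565). The TAMo libraries enter both this comparison and that of TAMo with vehicle, so the 2 sets of values are not independent. Without TAMo replicate 1 or without TAMo replicate 2, 7 members were again called in the same direction in both comparisons that use TAMo.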

How the data were processed

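RNA of OT-I cells was sequenced in 2 libraries for each of TAN, TAMo and vehicle. Extraction was with Trizol and library preparation with a TruSeq kit, per the labels' protocols. The authors deposited FPKM per gene and library. The build mm10 and the tools HISAT2 2.0.5, featureCounts 1.5.0-p3 and CASAVA are named, without their roles, per the submitters' processing notes. The sources used here do not give the annotation, the strand setting or the gene lengths. Each FPKM is a share of its library's reads per length, so large changes in abundant transcripts move all other values.

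Every column matched 1 label. Symbols of 25295 of the 25638 genes matched GENCODE M21 (GRCm38, the assembly of mm10), which gave coordinates, and no member shares exonic sequence with another annotated gene. Depth was read from low values, up to 40 reads, of 7708 genes with 1 transcript, of which 98.7% to 99.0% were whole reads within 0.1, at the depth that fitted best between 30000000 and 60000000 reads; a common multiple of it cannot be told apart. Replicates of a group correlated at 0.998 (TAN), 0.996 (TAMo) and 0.998 (vehicle) across genes and were counted as separate samples.

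Genes with at least 1 FPKM in 2 libraries were tested on log2(FPKM + 1) with limma 3.58.1 in R 4.3.3, in one model of all 6 libraries with a variance trend (3 residual and 4.07 prior degrees of freedom). Tests are two-sided, and a Benjamini-Hochberg adjusted p under 0.05 over all genes was called. At an unadjusted p under 0.05, 3737 genes passed for TAN and 9332 for TAMo against vehicle. The method was tested on simulated data with few changed genes with TAN and none with TAMo. The data here differ from that setting, so the simulation does not test the TAMo calls. A fold is the ratio of mean FPKM, a value after ± is the SD over 2 libraries for FPKM and the SE for a log2 change. Members and lists were chosen with earlier results of these data known. Beside the members, up to 3 called genes of largest change per list and comparison were named, with Itgb7, Cdh1, Smad4, Runx3, Lrrc32 and Pmepa1; other listed genes were added after their values were seen. One gene that this rule names is not reported here. Promoter windows are from RefSeq on GRCm38.p6.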

Additional observations from a re-analysis of the deposited data

How the results depend on the processing

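The 7 rises of members with TAMo and the 7 lower members of TAN against TAMo were called under all 16 alternatives, with Itgae as an eighth under no filter. Tgfb1 was called lower with TAMo, making 1 member lower, and higher in TAN against TAMo, making 1 member higher, under median-ratio rescaling, quantile normalisation, the replicate block and without TAMo replicate 2, so both counts ranged from 0 to 1 over the left-out libraries; the cause was not tested. For TAN against vehicle, the 1 member called lower became 0 with a pseudocount of 0.1 or 0.5, no filter, median-ratio rescaling, quantile normalisation, removal of mitochondrial transcripts, no variance trend or the replicate block, and without any 1 TAN or vehicle library (0 to 1 over the left-out libraries). The 2180 genes called with TAN became 1331 with no filter, where 18175 genes were tested, and ranged from 725 to 2574 over the left-out libraries, where fewer samples were fitted.

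Changes that turned round were all near 0 and not called. Tgfb1 with TAN had 0.0082 under median-ratio rescaling, 0.0011 without mitochondrial transcripts, 0.0035 without TAN replicate 1 and 0.013 without vehicle replicate 2. Without mitochondrial transcripts it had 0.027 with TAMo against vehicle and -0.026 for TAN against TAMo. Over the left-out libraries Tgfb1 with TAN ranged from -0.016 to 0.013, Ski with TAN from -0.040 without vehicle replicate 2 to 0.043, and Itgae with TAN and no filter from -0.085 without vehicle replicate 2 to 0.085, with -0.023 without TAN replicate 2. Over the pathway lists and alternatives, 55 counts moved by over 1.5 times and 713 did not. Leaving out mitochondrial transcripts moved the median of all genes with TAMo to 0.147. No broad effect shared by same-numbered libraries was seen: their deviations correlated at 0.057, 0.025 and 0.0078 across genes between pairs of groups. These values cannot tell whether same-numbered libraries were prepared together, because a shared effect on few genes would not show in them. With the replicate block, 2140 genes were called with TAN, 9282 with TAMo and 9300 for TAN against TAMo, against 2180, 9275 and 9290 without it. Itgae, at about 46 to 113 reads, stayed under the filter of 1 FPKM, and the added 1 narrows its differences. The protein sequences of the members were not used here.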
